A study of Mus musculus with 6 samples.

Results

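The transcripts of 9 regulators of nephron progenitors were followed in cultured kidney stroma, a cell population sorted for a stromal surface receptor and not for these genes. The members are Six2, Cited1, Eya1, Sall1, Pax2, Pax8, Wt1, Lhx1 and Gdnf, taken by gene symbol. Each symbol named 1 row of the 78317 genes in the deposited table. The cells were the PDGFRa-positive fraction, isolated by flow sorting, of the nephron-forming zone of E18 (embryonic day 18) kidneys from wild-type CD1 mice, and each library pools the kidneys of 1 litter. After sorting they spent 18 h in serum-containing medium on coverslips with a layer of PDMS, a silicone elastomer, that carried bovine fibronectin. Cells of both groups had been sorted in medium with the ROCK inhibitor Y27632. The fibronectin was offered at 50000 ng/mL for high adhesion (3 libraries) and at 500 ng/mL for low adhesion (3 libraries), and litters 1, 2 and 3 are represented once on each substrate. Polyadenylated RNA was sequenced, and the comparison asks whether the amount of substrate fibronectin changes these transcripts.

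Nephrons arise from a cap of mesenchyme that surrounds each tip of the ureteric bud, the branching epithelium that becomes the collecting ducts. SIX2 keeps the cap cells in a self-renewing state, CITED1 marks the least committed of them, and EYA1, SALL1, PAX2 and WT1 are needed for the cap to form or persist. As cells commit to a nephron, PAX8 and LHX1 appear in the first epithelial vesicles. GDNF, secreted around the tips, signals through the receptor RET on ureteric bud cells to drive branching. The stroma lies around the cap and is marked by the transcription factor FOXD1 and by PDGFRa.

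The promoters of Cited1 and Six2 are shown because Cited1 was the only member whose transcript passed the test between the substrates in the litter-blocked edgeR fit, and Six2 is the other progenitor marker set beside it here. The sequences are the 250 bases before a RefSeq transcription start, read 5′ to 3′ on the minus strand of build GRCm38.p6, at chrX:102252182-102252431 for Cited1 and chr17:85688255-85688504 for Six2. Capitals mark matches to the motifs searched.
Cited1: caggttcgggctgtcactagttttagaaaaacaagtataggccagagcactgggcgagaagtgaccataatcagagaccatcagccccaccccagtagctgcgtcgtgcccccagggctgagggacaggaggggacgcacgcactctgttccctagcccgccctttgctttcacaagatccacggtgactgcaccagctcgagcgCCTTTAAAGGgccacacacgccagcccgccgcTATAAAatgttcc
Six2: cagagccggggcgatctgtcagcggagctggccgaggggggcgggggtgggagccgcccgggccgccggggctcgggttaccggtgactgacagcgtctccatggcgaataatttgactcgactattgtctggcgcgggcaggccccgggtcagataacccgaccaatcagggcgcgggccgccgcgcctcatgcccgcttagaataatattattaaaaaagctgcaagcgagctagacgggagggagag

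The Cited1 stretch held 1 CArG box, the motif bound by serum response factor, 45 to 36 bases before the start, and TATAAA 13 to 8 bases before it. A CArG box was present in 1.48% of 32536 such stretches over all genes, on either strand, and TATAAA in 12.3%. The Six2 stretch held none of the 6 motifs searched, which besides these were GGAATG (bound by TEAD factors, in 12.6% of stretches), CTTTGA (TCF and LEF, 13.9%), TCAGGTTTC (MEF3, 0.378%) and TGATAC (the core of sites for SIX2 and its relatives, 4.66%). The table held 14 stretches for 7 members. Among the 3 listed for Cited1, the second also held TATAAA and the third held no match. Of the other members, Sall1 held CTTTGA on the reverse strand in 1 stretch and Gdnf TATAAA in 1. No match overlapped another. Which of the Cited1 starts was used in these cells was not analysed here. The table used has no entry for Eya1 and Wt1.

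The libraries held 12596231 to 13508227 counts, and a gene with 3 counts had 0.222 to 0.238 CPM, the unit that divides counts by library size. CPM are given on library sizes scaled by the trimmed mean of M values (TMM), a correction for composition. The share of mitochondrially encoded RNA was 1.72% to 1.86% at high adhesion and 1.69% to 2.32% at low adhesion. The stromal identity named by the labels was checked against 16 markers of nephrogenic stroma, all of which passed the filter on low counts. Their summed level was 2818 to 2983 CPM at high adhesion and 3242 to 3568 CPM at low adhesion, and 11 of the 16 fell. Markers of other cell types were also present. The 12 ureteric genes summed to 171 to 192 CPM at high adhesion and 145 to 147 CPM at low adhesion. Of this the keratin gene Krt19 alone had 110 to 120 CPM at high adhesion and 63.0 to 73.4 CPM at low adhesion. The remaining ureteric genes summed to less at high than at low adhesion in each litter. The 16 nephron epithelial genes summed to 84.8 to 101 CPM at high adhesion and 73.3 to 89.1 CPM at low adhesion. The 8 leukocyte genes summed to 35.5 to 84.9 CPM at high adhesion and 45.1 to 83.5 CPM at low adhesion. In bulk RNA of this kind, fewer cells of a type and less RNA per cell cannot be told apart. For the members this means that their level in stromal cells and the number of progenitor cells carried through the sort cannot be told apart either.

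Wt1, Sall1, Cited1, Gdnf and Six2 each averaged above 5 CPM over the 6 libraries, whereas Pax2, Eya1, Pax8 and Lhx1 lay below it. Between genes, levels are set side by side only after division by exon length, taken as the union of annotated exons. On that scale Cited1 was highest with 11.6 ± 3.16 CPM per kb, followed by Six2 with 8.13 ± 1.57, Gdnf with 5.14 ± 0.25, Sall1 with 4.93 ± 0.58 and Wt1 with 4.47 ± 0.49 CPM per kb (SD, n = 6 libraries each). Cited1 and Six2 overlapped in their ranges, but within each library Cited1 was the higher, by 1.03-fold to 1.31-fold in CPM before division by length. Gdnf, Sall1 and Wt1 also overlapped, while the lowest Six2 library at 6.07 CPM per kb lay above the highest Gdnf library at 5.46. Pax2 followed at 0.548 ± 0.136 CPM per kb, and Pax8, Eya1 and Lhx1 at 0.169, 0.164 and 0.153 CPM per kb, with overlapping ranges among the last 3. The stromal factor gene Foxd1 stood at 37.0 ± 4.72 CPM per kb and Pdgfra, the sorted receptor, at 2.59 ± 0.648 CPM per kb (SD, n = 6 libraries each). These averages pool both substrates, and both genes were lower at high adhesion in 3 of 3 litters. Exon length need not be the length that the library chemistry samples, so this order is approximate.

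**Figure D1:**
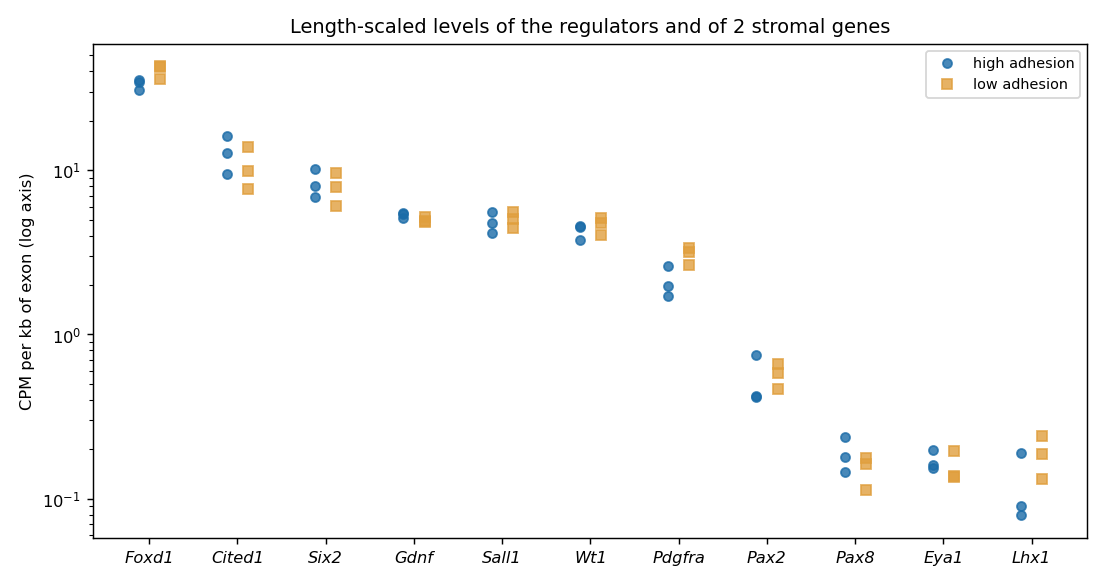
Level of each regulator and of the stromal genes Foxd1 and Pdgfra in CPM per kb of exon on a log axis, with 1 point per library, circles for high and squares for low adhesion. Cited1 and Six2 lie between Foxd1 and the group of Gdnf, Sall1 and Wt1, and Pax8, Eya1 and Lhx1 lie lowest.

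Of the 9 members 8 passed the filter on low counts and were tested, and 1 of the 8 changed between the substrates. Over all 14834 genes tested, 9.55% passed, 4.71% higher and 4.83% lower at high adhesion. The call is a two-sided Benjamini-Hochberg adjusted p under 0.05 in the quasi-likelihood fit of edgeR that includes litter. The member that passed was Cited1, which rose. None of the tested members fell, and 1 member, Cited1, had an unadjusted p under 0.05 in edgeR. Without the replicate block 0 members passed, beside 0.243% of all genes, and in DESeq2 0 members passed, beside 2.74% of all genes. The median log2 fold change, high minus low adhesion, was 0.10 over the 8 tested members and 0.00 over all genes tested. The direction was the same in 3 of 3 litters for 5 members (Six2, Cited1, Pax8 and Gdnf higher, Wt1 lower), as it was for 41.2% of all genes tested (20.9% higher, 20.4% lower).

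**Figure D2:**
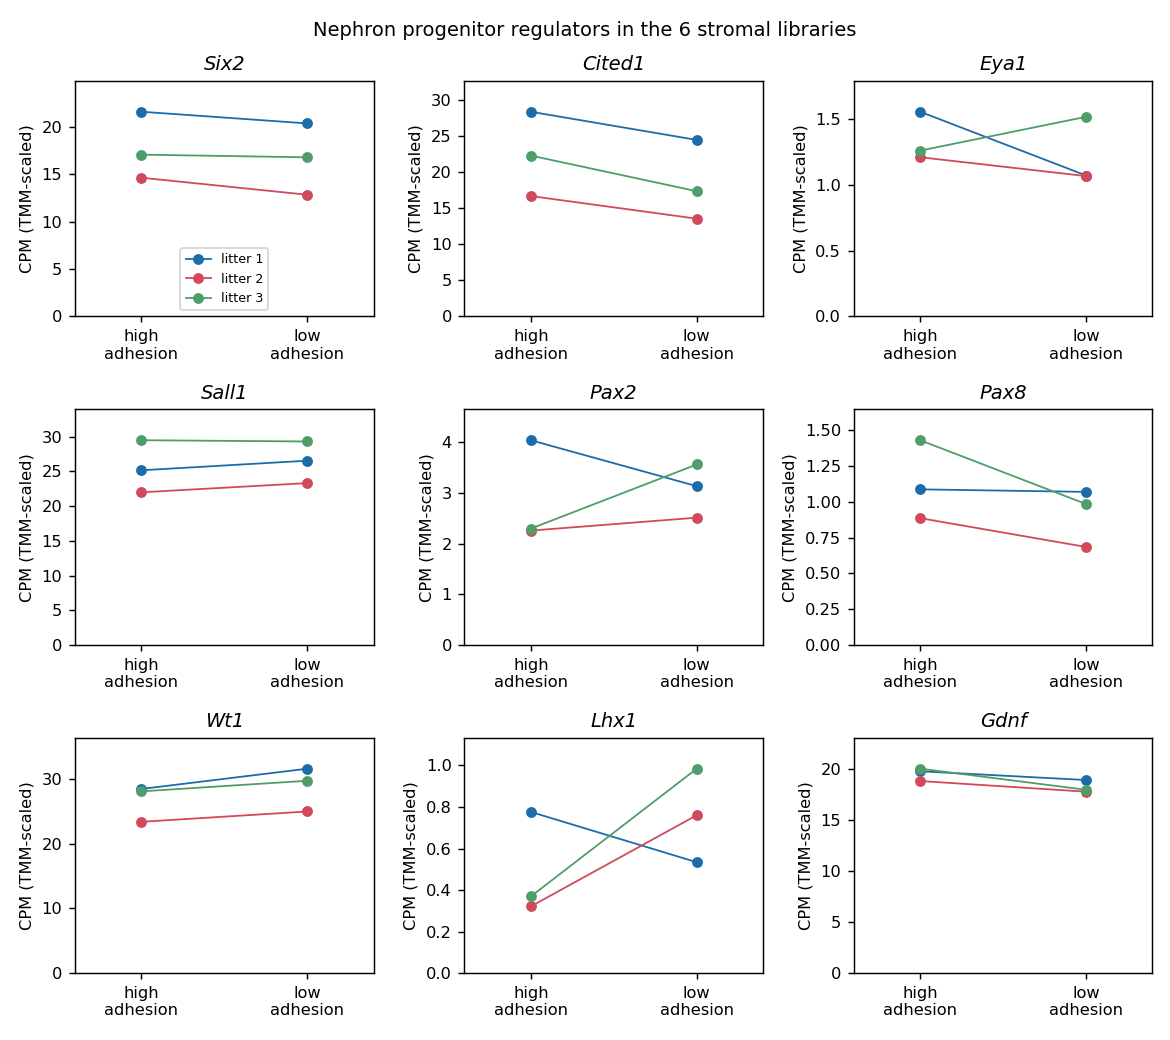
TMM-scaled CPM of each regulator in the 6 libraries, high adhesion left and low adhesion right, with a line joining the libraries of 1 litter. Cited1 is higher at high adhesion in 3 of 3 litters, and the order of the litters is the same on both substrates for Six2, Cited1, Sall1 and Wt1.

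Cited1 (ENSMUSG00000051159) encodes a transcriptional co-regulator without a DNA-binding domain that recruits the acetyltransferases CBP and p300. Its level was 28.3, 16.7 and 22.3 CPM at high adhesion in litters 1, 2 and 3, against 24.4, 13.5 and 17.3 CPM at low adhesion. Taken as groups the substrates overlapped, but within each litter the high adhesion library was the higher, by 1.16-fold, 1.23-fold and 1.28-fold. The rise was 1.219-fold, or 0.29 ± 0.08 on the log2 scale (± standard error, SE, of the edgeR fit over 3 litters, edgeR adjusted p = 0.0183). This SE and those given below draw on variance estimates shared across genes and are not the spread of the 3 litters. Without the replicate block the edgeR adjusted p was 0.827, and DESeq2 with litter in the model gave an adjusted p of 0.433. Without litter 3 the log2 fold change was 0.25 (edgeR adjusted p = 0.188).

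Six2 (ENSMUSG00000024134), the homeodomain factor of progenitor self-renewal, had 21.6, 14.7 and 17.1 CPM at high adhesion in litters 1, 2 and 3, against 20.4, 12.9 and 16.8 CPM at low adhesion. The high adhesion library was the higher in 3 of 3 litters, by 1.06-fold, 1.14-fold and 1.02-fold, and the groups overlapped almost entirely. The log2 fold change of 0.09 ± 0.08 did not pass the test (± SE over 3 litters, edgeR adjusted p = 0.588). That Cited1 passed and Six2 did not does not by itself show that they differed, so the ratio of Cited1 to Six2 within each library was compared. It was 1.31, 1.14 and 1.30 at high adhesion in litters 1, 2 and 3, against 1.20, 1.05 and 1.03 at low adhesion, higher in 3 of 3 litters. The mean log2 difference of 0.19 ± 0.13 (SD, n = 3 litters) had an exact two-sided sign-flip permutation p of 0.25, the smallest that 3 litters allow. This ratio was chosen after the values were seen.

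Eya1 (ENSMUSG00000025932), a phosphatase and co-activator that works with SIX2 and its relatives, was near the limit of what these libraries could measure. It had 20, 15 and 17 counts at high adhesion in litters 1, 2 and 3, against 14, 14 and 20 counts at low adhesion. The groups overlapped and the litters went both ways, and the log2 fold change of 0.13 ± 0.27 (± SE over 3 litters, edgeR adjusted p = 0.855) leaves a difference of either sign possible.

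Sall1 (ENSMUSG00000031665), a zinc-finger factor that recruits the NuRD co-repressor, had 25.2, 21.98 and 29.5 CPM at high adhesion in litters 1, 2 and 3, against 26.5, 23.3 and 29.3 CPM at low adhesion. Litter by litter the substrates differed by little, with ratios of 0.948, 0.943 and 1.01. The log2 fold change was -0.05 ± 0.07 (± SE over 3 litters, edgeR adjusted p = 0.775). Sall1 held fractional counts in 3 of 6 libraries, whose origin was not tested, and Six2, Pax8 and Gdnf did so in 1 library each.

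Wt1 (ENSMUSG00000016458), a zinc-finger factor of progenitors and later of podocytes, had 28.4, 23.4 and 28.04 CPM at high adhesion in litters 1, 2 and 3, against 31.5, 24.9 and 29.7 CPM at low adhesion. It was the lower at high adhesion in 3 of 3 litters, with ratios of 0.901, 0.936 and 0.945, yet its log2 fold change of -0.11 ± 0.07 did not pass the test (± SE over 3 litters, edgeR adjusted p = 0.392). Among 9 podocyte markers 5 were tested, and 1 rose, Podxl, which encodes podocalyxin (1.52-fold, edgeR adjusted p = 0.0201). Podxl did not pass without litter 1 (edgeR adjusted p = 0.268). The slit diaphragm gene Nphs1 had at most 0.272 CPM in any library, near the level of 3 counts. The antisense transcript Wt1os had 32, 18 and 30 counts at high adhesion in litters 1, 2 and 3, against 27, 14 and 14 counts at low adhesion (edgeR adjusted p = 0.16). Without a stated strand setting its reads cannot be told apart from those of Wt1.

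Pax2 (ENSMUSG00000004231), a paired-box factor of the cap and of the ureteric bud, had 52, 28 and 31 counts at high adhesion in litters 1, 2 and 3, against 41, 33 and 47 counts at low adhesion. Litter 1 went one way and litters 2 and 3 the other, and the log2 fold change was -0.11 ± 0.20 (± SE over 3 litters, edgeR adjusted p = 0.832). Pax8 (ENSMUSG00000026976), its close relative in the early nephron, had 14, 11 and 19.33 counts at high adhesion, against 14, 9 and 13 counts at low adhesion. It had the largest log2 fold change of the tested members, 0.30 ± 0.30, with an SE of the same size (3 litters, edgeR adjusted p = 0.656).

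Lhx1 (ENSMUSG00000018698), a LIM-homeodomain factor of the first nephron vesicles, did not pass the filter. It had 10, 4 and 5 counts at high adhesion in litters 1, 2 and 3, against 7, 10 and 13 counts at low adhesion. Summed over litters these were 19 counts at high adhesion (95% exact Poisson interval 11.4 to 29.7) and 30 counts at low adhesion (20.2 to 42.8), intervals that overlap and cover counting error only. With no low-count filter its log2 fold change was -0.64 ± 0.41 (± SE over 3 litters, edgeR adjusted p = 0.862). Its antisense neighbour Lhx1os had 17, 5 and 8 counts at high adhesion and 14, 12 and 9 counts at low adhesion, so its counts were of the size of those of Lhx1.

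Gdnf (ENSMUSG00000022144), the secreted ligand, varied least in proportion to its level among the members above 5 CPM. It had 19.8, 18.8 and 20.1 CPM at high adhesion in litters 1, 2 and 3, against 18.9, 17.8 and 18.0 CPM at low adhesion. The groups met at their edges, and the high adhesion library was the higher in 3 of 3 litters, by 1.05-fold, 1.06-fold and 1.12-fold. The log2 fold change of 0.10 ± 0.08 did not pass the test (± SE over 3 litters, edgeR adjusted p = 0.522). Of 15 genes that transmit, limit or restrain the GDNF signal 13 were tested, 2 rose and 1 fell. Grem1, which encodes the BMP antagonist gremlin, fell 1.39-fold (edgeR adjusted p = 0.000468). Ncam1, a cell adhesion gene whose product can bind GDNF, rose 1.20-fold (edgeR adjusted p = 0.00206), and Spry1, a feedback inhibitor of receptor tyrosine kinases, rose 1.12-fold (edgeR adjusted p = 0.016). Spry1 did not pass without litter 1 or without litter 3 (edgeR adjusted p = 0.126 and 0.099). In DESeq2 Grem1 was the only gene of this list that passed (adjusted p = 0.0348). The receptor gene Ret did not pass the filter, with at most 0.993 CPM in any library.

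**Figure D3:**
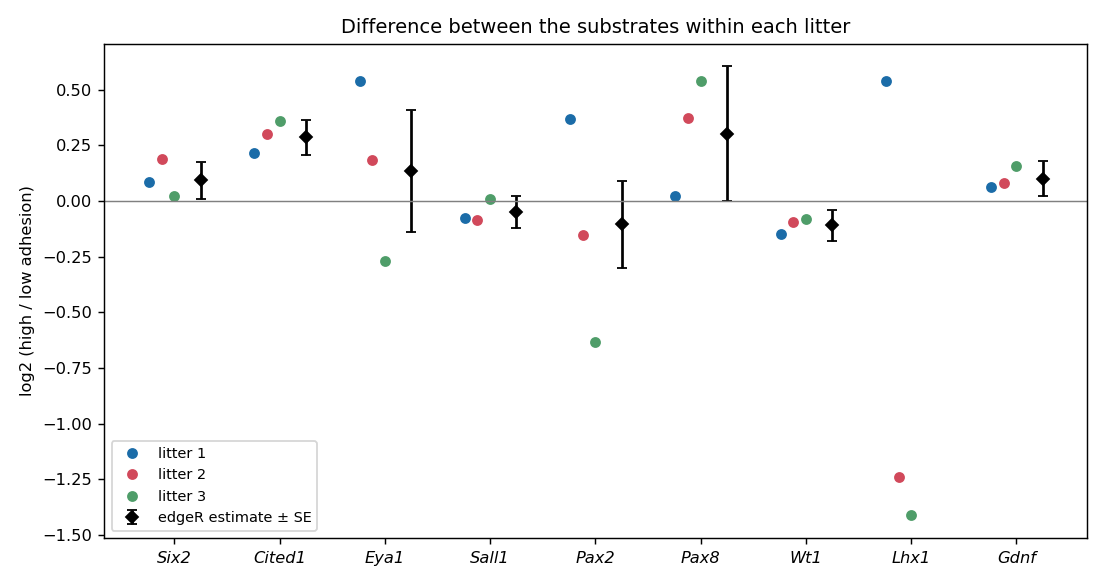
Log2 ratio of high to low adhesion for each regulator in each litter (coloured points) and the edgeR estimate with its standard error (black diamonds, n = 3 litters, absent for Lhx1, which was not tested). The points for Cited1 lie above 0 and close together, and those for Eya1, Pax2 and Lhx1 fall on both sides of 0.

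More members passed between the litters. In the edgeR litter test 4 of the 8 tested members passed, beside 17.9% of all genes tested. Cited1 was 1.70-fold and 1.81-fold higher in litter 1 than in litter 2 on the high and the low adhesion substrate (edgeR adjusted p = 2.3e-06 for litter), and Six2 was 1.48-fold and 1.59-fold higher (edgeR adjusted p = 0.000292). Both were highest in litter 1, intermediate in litter 3 and lowest in litter 2 on each substrate. Wt1 (edgeR adjusted p = 0.0215) was also lowest in litter 2 and highest in litter 1, whereas Sall1 (edgeR adjusted p = 0.00864) was lowest in litter 2 and highest in litter 3. Gdnf did not differ detectably, with ratios of litter 1 to litter 2 of 1.05 and 1.06 (edgeR adjusted p = 0.846), and Eya1, Pax2 and Pax8 did not pass. Only Cited1 passed the litter test in DESeq2, and in edgeR Cited1 alone passed whichever litter was left out. Wt1 did not pass without litter 2 or without litter 1 (edgeR adjusted p = 0.826 and 0.0595), Six2 not without litter 1 (edgeR adjusted p = 0.0766), and Sall1 not without litter 2 or without litter 3 (edgeR adjusted p = 0.168 and 0.199).

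Other marker lists did not all follow the litters in the same way. The summed level of the 8 leukocyte markers was 84.9, 35.5 and 43.7 CPM at high adhesion in litters 1, 2 and 3, against 83.5, 46.3 and 45.1 CPM at low adhesion, highest in litter 1 like Six2 and Cited1. The summed level of 19 other nephron progenitor genes was 132, 138 and 147 CPM at high adhesion, against 133, 142 and 141 CPM at low adhesion, lowest in litter 1. That order came from Hox genes. The largest part was the homeobox gene Hoxd11, with 37.6, 45.2 and 50.5 CPM at high adhesion, against 42.4, 56.6 and 53.6 at low adhesion. Without Hoxa11, Hoxc11 and Hoxd11 the sum was highest in litter 1 on each substrate. These genes were set aside after their values were seen, so the reduced sum is a description only. The 16 stromal markers summed to 2824, 2983 and 2818 CPM at high adhesion, against 3242, 3568 and 3356 CPM at low adhesion, highest in litter 2. The part of the other cell types in the litter differences of the members was not tested.

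The patterns over the 6 libraries were compared with those of other genes by the mean absolute difference of centred log2(CPM + 1), over genes averaging at least 5 CPM. The genes most like Cited1 were Baiap2l1, Dusp5 and Cadm4, with differences of 0.023, 0.038 and 0.065, against a median of 0.324 over the 9400 genes compared. Dusp5 encodes a phosphatase that inactivates ERK and Baiap2l1 an adaptor of actin assembly. Among the genes most like Six2 were Errfi1 and Oxr1 (0.033 and 0.036, median 0.226). Six2 stood at place 46 for Cited1 with 0.117, and Cited1 at place 258 for Six2. Sall1 was most like Fam32a, Usp28 and Coa6, Wt1 like Id1, Ddx24 and N4bp1, and Gdnf like Cbx6, Noc4l and Ghitm, with differences of 0.011 to 0.032. The medians for Sall1, Wt1 and Gdnf were also smaller, 0.161, 0.152 and 0.105, so differences are not comparable between members. These likenesses over 6 libraries of 3 litters are a description.

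Among 19 other genes of nephron progenitors 16 were tested, 1 rose and 2 fell, with a median log2 fold change of 0.00. Osr1, a factor of the earliest kidney mesenchyme that is also found in stroma, had 24.8, 16.2 and 23.6 CPM at high adhesion in litters 1, 2 and 3, against 15.0, 9.89 and 14.8 CPM at low adhesion. It was higher at high adhesion in 3 of 3 litters and rose 1.63-fold (edgeR adjusted p = 1.42e-06). Tmem100 fell 3.24-fold from few counts, with 0.383 ± 0.198 CPM at high adhesion and 1.27 ± 0.311 CPM at low adhesion (SD, n = 3 each, edgeR adjusted p = 0.00271). DESeq2 gave Tmem100 no adjusted p. The homeobox gene Hoxd11 fell 1.14-fold (edgeR adjusted p = 0.0477). Hoxd11 held fractional counts in 6 of 6 libraries and did not pass without litter 1 or without litter 2 (edgeR adjusted p = 0.128 and 0.282).

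Of 30 members of the same gene families 9 were tested, and 2 rose. Lhx6, a LIM-homeodomain relative of Lhx1, had 4.00, 2.82 and 3.18 CPM at high adhesion in litters 1, 2 and 3, against 1.68, 0.913 and 0.984 CPM at low adhesion, groups that did not overlap. It rose 2.79-fold (edgeR adjusted p = 2.44e-05) from 12 to 51.5 counts per library, and DESeq2 gave it no adjusted p. Cited2, a relative of Cited1, was far more abundant, with 937 ± 59.3 CPM at high adhesion and 831 ± 63.5 CPM at low adhesion (SD, n = 3 each), and rose 1.13-fold (edgeR adjusted p = 0.00222, and 0.131 without litter 3). Of 19 genes for partner proteins 18 were tested, 1 rose and 2 fell. Chd4 and Hdac1, of the NuRD complex that SALL1 recruits, fell 1.18-fold and 1.14-fold (edgeR adjusted p = 0.00151 and 0.0228), and Wtip, named for its product's binding to WT1, rose 1.11-fold (edgeR adjusted p = 0.0353). Hdac1 and Wtip did not pass in DESeq2 (adjusted p = 0.293 and 0.311) or without litter 1 or litter 3. Without litter 2, 8 of these partner genes passed in edgeR.

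The gene lists of neighbouring cell types are given beside the members since cells of each could carry some of these transcripts. Of 11 tested nephron epithelial genes 4 rose and 1 fell. Wnt4, the signal by which progenitors turn into epithelium, rose 1.90-fold with 8.04, 5.42 and 9.21 CPM at high adhesion in litters 1, 2 and 3, against 4.12, 4.26 and 3.58 CPM at low adhesion (edgeR adjusted p = 0.000276), groups that did not overlap. The tight junction gene Cldn6 rose 4.17-fold and Bmp2 1.42-fold, and the cadherin gene Cdh6 fell 1.78-fold (edgeR adjusted p = 1.66e-05, 0.00174 and 2.25e-07). Cldn6 had only 5 to 35 counts per library, and DESeq2 gave it no adjusted p. Bmp2 did not pass in DESeq2 (adjusted p = 0.168). Of 9 tested ureteric genes 2 rose and 1 fell, among them the keratin gene Krt19, 1.63-fold higher, and Gata3, 1.29-fold lower (edgeR adjusted p = 4.66e-10 and 0.000226). Of the 16 stromal markers 11 fell, among them Rarb, Ntn1, Meis2 and Col3a1 (1.74-fold, 1.46-fold, 1.319-fold and 1.26-fold lower). Foxd1 and the sorted receptor gene Pdgfra fell too, 1.20-fold and 1.46-fold (edgeR adjusted p = 8.0e-05 and 1.59e-05). Of the 6 endothelial genes Flt1 rose 1.47-fold and Emcn fell 1.26-fold, and of the 8 leukocyte genes Lyz2 rose 1.29-fold and Cd14 fell 1.63-fold. Emcn did not pass without litter 3 and Lyz2 not without litter 1 (edgeR adjusted p = 0.0536 and 0.282). The part of these cell types in the rise of Cited1 was not tested.

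**Figure D4:**
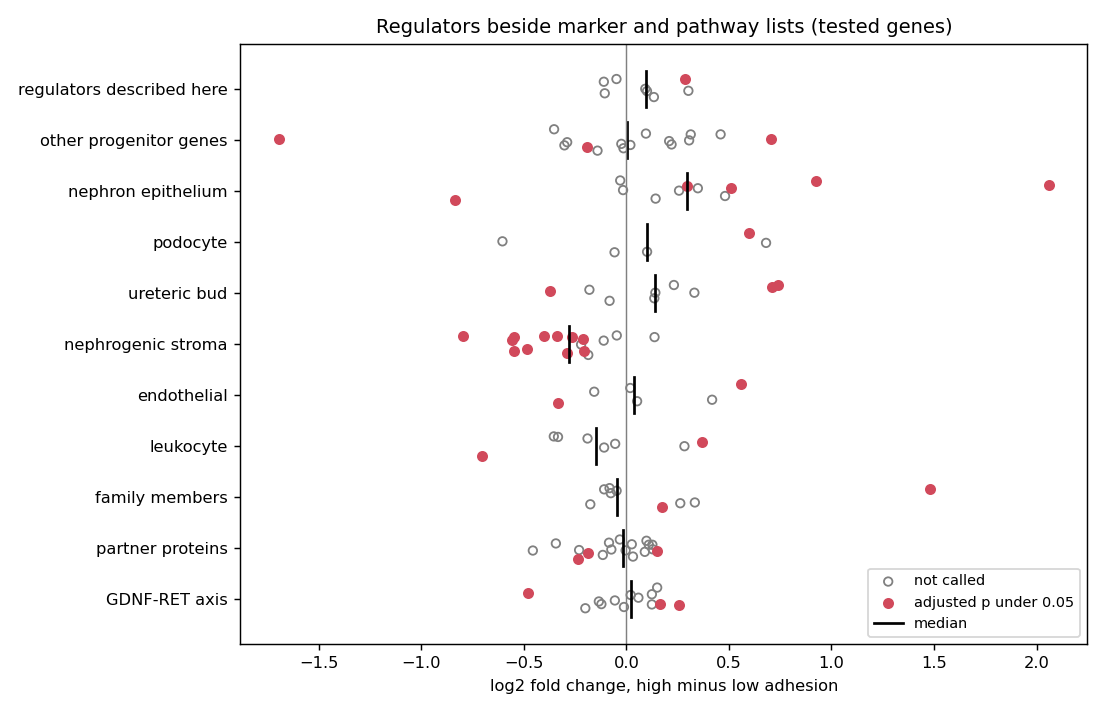
Log2 fold change, high minus low adhesion, of each tested gene in the set of regulators and in 10 marker and pathway lists, with red points for an edgeR adjusted p under 0.05 and a bar at each median. The regulators lie between -0.11 and 0.30 with Cited1 as the only red point, and the nephrogenic stroma list lies lowest with a median of -0.28.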

How the data were processed

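The submitters' processing notes name build GRCm39 and the tools featureCounts (Subread 2.1.1), STAR 2.7.11, fastp 0.24.0, FastQC 0.12.1, MultiQC 1.32 and SAMtools 1.22.1, in no stated order. Not given in the sources used here are the strand setting, the annotation and how multiply mapping reads were counted. In 1 table the authors deposited estimated counts per gene, some fractional, and CPM computed from them. The 92 rows of ERCC spike-in sequences, 0.00017% of counts, were left out. After rounding, the counts were fitted in R 4.3.3 by edgeR 4.0.16 (filterByExpr, TMM, robust quasi-likelihood F-test, litter as a block because the design text states litter-matched samples). The Benjamini-Hochberg adjustment ran over 14834 genes. A fold change is 2 to the power of the fitted log2 value, and standard errors are the log2 fold change divided by the root of F. Deviations from the group means correlated within litters at 0.58, 0.58 and 0.36 over genes. Including litter gave a biological coefficient of variation of 4.06%, and leaving it out 10.7%. Printed CPM use TMM-scaled library sizes. Alternatives were no replicate block, other size factors and filters, DESeq2 1.42.0, limma-voom (limma 3.58.1) and leaving out each litter.

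Genes named are all members, up to 4 called genes of lowest adjusted p per list, antisense partners matched by symbol, and the 3 genes most alike each member of at least 5 CPM. Nphs1, Ret, Hoxa11 and Hoxc11 were named after their values were seen. Results for some genes that these rules pick are not reported here. Members and lists were chosen with earlier results of these data known. Some genes belong to several lists. Exon lengths came from GENCODE M21 on GRCm38 by gene identifier and were found for 9 of 9 members. Promoters are from RefSeq on GRCm38.p6, matched by symbol for 7 members. No coordinates of the files' build are printed. Counts carry no molecular identifiers, so intervals cover counting error only.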

Additional observations from a re-analysis of the deposited data

How the results depend on the processing

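The rise of Cited1 had the same direction in all 9 alternatives (log2 fold change 0.25 to 0.33) and passed in 6 of them. Members called between the substrates were 1 with litter in the model, 0 without the replicate block (edgeR, 0 at an unadjusted p under 0.05) and 0 in DESeq2 (1 at an unadjusted p under 0.05), and 0 to 1 when each litter was left out, the 0 coming without litter 3. Over all genes, 36 passed without the replicate block, 406 in DESeq2 and 908 to 1553 when each litter was left out, in place of 1416. Members called between litters were 4, but 1 in DESeq2 and 2 to 3 when each litter was left out. The genes called between litters were 2655, but 866 in DESeq2 and 1384 to 2687 when each litter was left out. In the cases with 2 litters the litter test compares only those. No other member passed between the substrates in any alternative that tested it. Eya1 and Pax2 turned sign in 1 alternative each, to -0.07 without litter 1 and to 0.16 without litter 3, and DESeq2 gave no adjusted p for Eya1 and Pax8. Lhx1 was fitted in 3 alternatives, with log2 fold changes of -1.31 to -0.42 and no call. The 27 genes picked from the lists by lowest adjusted p kept their direction throughout. Of these, 24 were not called without the replicate block and 9 not in DESeq2, where 4 others had no adjusted p. Depth limits Eya1, Pax2, Pax8 and Lhx1, which had 4 to 52 counts per library. With 3 litters the exact paired test cannot go below 0.25.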
